A study of Mus musculus with 24 samples.

Results

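Quadriceps of mice with Lama2-related congenital muscular dystrophy (CMD) on the BXD-87 background (87 CMD) was compared with quadriceps of CMD mice on C57BL/6J (B6 CMD), to describe how diseased muscle differs between genetic backgrounds. The libraries were taken by their strain and genotype labels. They were 87 CMD libraries 16, 17 and 18 and B6 CMD libraries 4, 5 and 6, which are 6 of the 24 libraries of the series. The strain of the first group is written CMD-87 in the labels and BXD-87 in the study design. All mice were 25 weeks old, and the left quadriceps was frozen at that age. Library 16 came from a female and libraries 17 and 18 from males. Library 5 came from a female and libraries 4 and 6 from males. Healthy wild-type muscle of the same age gave the background level of each strain: 87 WT libraries 13, 14 and 15 and B6 WT libraries 1, 2 and 3, each with 1 male and 2 females. The WT and CMD groups of the same age on BXD-67 (67 WT and 67 CMD, 3 libraries each) entered the same 18-library fit and its estimate of spread. Those on DBA/2J (D2 WT and D2 CMD, 3 each) gave levels only. The Lama2 allele of the CMD mice is not given in the sources used here, and no source says whether the mice of a group share a litter.

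Lama2 encodes the main laminin alpha chain around muscle fibres. It is part of the basement membrane, the sheet of matrix that ties each fibre to its surroundings through dystroglycan and integrins. When that chain is lost, fibres degenerate, and connective tissue builds up between them. In muscle this interstitial matrix (fibrillar collagens, fibronectin, elastic fibres and small proteoglycans) is made largely by fibro-adipogenic progenitors and other fibroblasts, and tendon-like cells make its cartilage-type components. BXD lines were bred by crossing C57BL/6J (B6) with DBA/2J (D2) and inbreeding the offspring, so a BXD line carries some stretches of each parent's genome. Here 87 is the name of a labelled group, whose libraries were divided at genes that separate the parent strains (values are given last).

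The 6 CMD libraries held 37985319 to 47321351 total exon reads, with 15720 to 16230 genes detected. Levels are given as CPM, read counts relative to the TMM-scaled library size. The muscle fibre genes Acta1, Ckm, Myh4 and Mylpf together reached 67123 to 111256 CPM in 87 CMD libraries and 71044 to 89343 CPM in B6 CMD libraries, which fits the tissue label. Lama2 itself (ENSMUSG00000019899) was at 12.9, 19.5 and 16.4 CPM in 87 CMD libraries 16, 17 and 18, and at 23.7, 16.1 and 23.9 CPM in B6 CMD libraries 4, 5 and 6. The groups overlapped, and the log2 fold change (87 CMD over B6 CMD, here and below) was -0.38 ± 0.19 (SE), with adjusted p = 0.28 (-0.31 with adjusted p = 0.66 without library 16) in edgeR's quasi-likelihood test. Lama2 was 35.8, 27.5 and 27.4 CPM in 87 WT libraries and 40.8, 36.5 and 50.3 CPM in B6 WT libraries, above every CMD library of the same strain.

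Library 16 stood apart from every other CMD library, so the comparison with B6 CMD was repeated without it. Among 11991 genes with a mean of at least 1 CPM, 136 were at least 4-fold above and 224 at least 4-fold below both other 87 CMD libraries. In the other 5 CMD libraries the same counts, taken within each group, ran from 4 to 33 above and from 1 to 22 below. The high genes included the metallothioneins Mt1 and Mt2, which bind zinc and copper, and the ubiquitin ligase genes Trim63 and Fbxo32, which are induced in wasting muscle. They also included the glucocorticoid-induced chaperone gene Fkbp5 and the cell cycle inhibitor gene Cdkn1a. Mt1 was at 1181, 20.1 and 27.3 CPM in 87 CMD libraries 16, 17 and 18, and at 25.2, 75.5 and 19.3 CPM in B6 CMD libraries 4, 5 and 6. Fbxo32 was at 3038, 370 and 381 CPM in 87 CMD, and at 288, 252 and 207 CPM in B6 CMD. Fkbp5 was at 274, 14.6 and 16.2 CPM in 87 CMD, and at 34.2, 39.7 and 29.0 CPM in B6 CMD, so that without library 16 the direction of the difference turned, with log2 fold changes of 1.02 with it and -1.07 without. None of the 6 genes passed the test between the groups, with or without library 16. Library 16 is also the only female of its group, so leaving it out leaves an 87 CMD group of males.

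**Figure D1:**
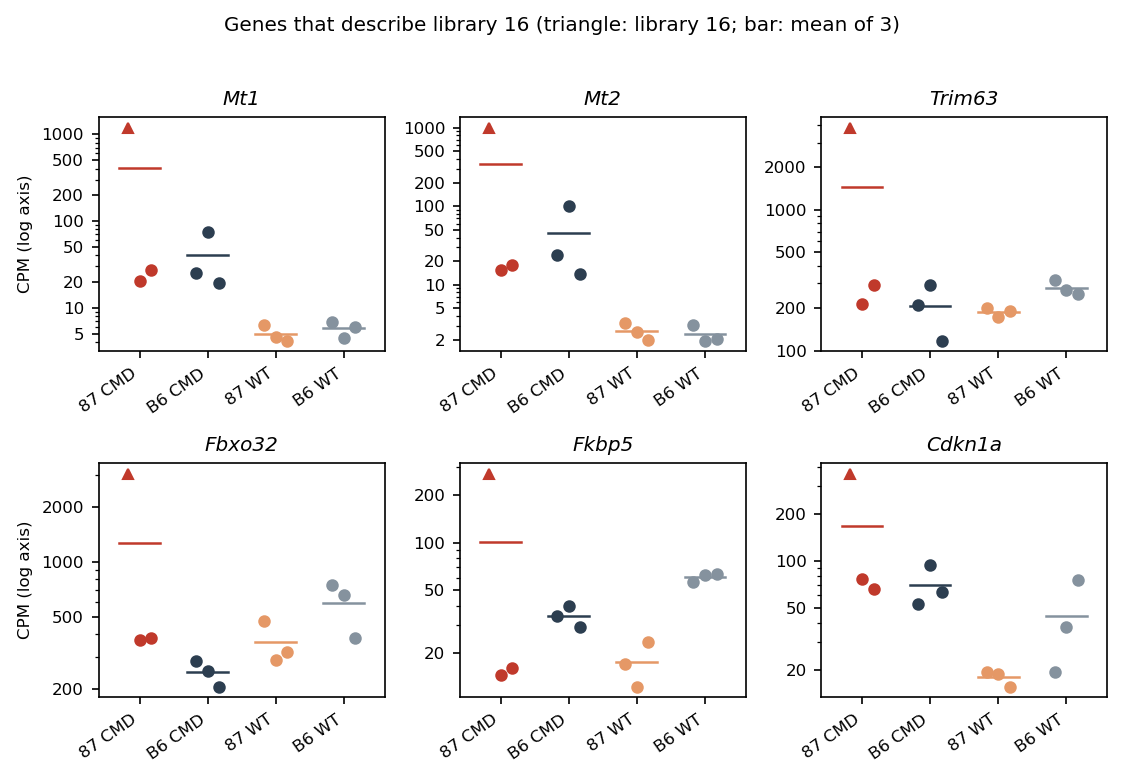
CPM on a log axis of 6 genes chosen to describe library 16, in 87 CMD, B6 CMD, 87 WT and B6 WT muscle. Points are libraries, the triangle is library 16 and bars are means of 3; the triangle lies above every other point in each of the 6 panels, and the other 87 CMD points lie far lower.

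The promoters of Mt1 and Mt2 are shown because both transcripts were high in library 16 alone among the 87 CMD libraries. Each line is the 250 bases before the annotated start in RefSeq (GRCm38.p6), read 5′ to 3′ on the strand of the gene. Capitals mark TGCNCNC on either strand, a loosened form of the metal response element core.
Mt1 promoter, chr8:94178839-94179088, plus strand: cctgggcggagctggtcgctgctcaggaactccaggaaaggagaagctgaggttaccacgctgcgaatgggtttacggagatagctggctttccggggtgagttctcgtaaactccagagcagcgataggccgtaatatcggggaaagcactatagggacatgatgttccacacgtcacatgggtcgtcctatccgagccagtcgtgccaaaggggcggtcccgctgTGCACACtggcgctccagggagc
Mt2 promoter, chr8:94172368-94172617, plus strand: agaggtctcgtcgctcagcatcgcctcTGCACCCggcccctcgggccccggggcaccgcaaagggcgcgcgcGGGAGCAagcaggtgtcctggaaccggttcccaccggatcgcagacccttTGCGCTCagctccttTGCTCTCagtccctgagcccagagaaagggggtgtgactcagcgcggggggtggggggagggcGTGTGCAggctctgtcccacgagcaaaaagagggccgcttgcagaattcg
The motif occurred 1 time in the Mt1 window and 5 times in the Mt2 window. Bases after the annotated start were not searched, so these counts are of the windows and not of all such sites near the genes. It is short and common, and 44.4% of 32851 promoters of this length held at least 1 match. At least 4 matches were present in 1.28% of them.

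In diseased muscle of the 87 strain, transcripts of the interstitial matrix were lower than in diseased B6 muscle, and fewer genes were called higher than lower. With Benjamini-Hochberg adjustment over 14503 genes, edgeR's quasi-likelihood test placed 147 genes lower in 87 CMD (1.01% of those tested) and 44 higher (0.303%) at an adjusted p under 0.05. Among the lower genes were the microfibril gene Fbn1, the fibronectin gene Fn1, the elastin gene Eln and the cartilage matrix gene Comp. The 6 libraries, which also chose these genes, did not overlap in 188 of the 191 called genes. Over all tested genes, all 3 87 CMD libraries lay below all 3 B6 CMD libraries for 1371 genes (9.45%) and above them for 1178 genes (8.12%).

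Without library 16, 21 of 14692 genes were called lower (0.143%) and 10 higher (0.0681%). All 191 genes kept their direction and had an unadjusted p under 0.05 without library 16. This fit reuses the other CMD libraries that chose the 191 genes, so that agreement is a description. Of the 191, 26 stayed past the adjusted threshold, which is 13.6% of the 191 and 83.9% of the 31. Over the 191 genes the median absolute log2 fold change was 1.31 with library 16 and 1.13 without it. The number of calls leaned on single libraries: it was 9 without B6 CMD library 5 (7 lower), 71 without library 4 (65 lower) and 93 without library 6 (76 lower). It was 136 without library 17 (75 lower) and 737 without library 18 (439 lower). It was 23 with no term for sex, 20 in a fit of the 12 libraries of B6 and 87, and 0 in a fit of the 6 CMD libraries alone, where 1429 genes had an unadjusted p under 0.05. DESeq2 on the same libraries called 956 genes, 460 higher and 496 lower, a share of lower genes of 51.9% against 77% in edgeR.

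The calls of single genes leaned on these choices too. Of 21 genes named for passing with and without library 16, 12 passed in the 12-library fit, 11 with no sex term and 7 without library 5. The 12-library fit ended the calls of Fbn1, Comp, Axl, Antxr1, Cpxm2, Itga11, Meox1, Pkd2 and AU022252, and those of Fn1, Mfap5, Col4a1, Serping1, Isg15, Chac1, Vcan and Hyi, with adjusted p of 0.053 to 0.136. Dropping the sex term ended those of Fbn1, Aspn, Enpep, Lhfpl6, Col12a1, Axl, Antxr1, Itga11, Pkd2 and AU022252, and those of Fn1, Mfap5, Mgp, Col4a1, Serping1, Isg15, Chac1 and Vcan, with adjusted p of 0.0517 to 0.171. Acsl6, Fbln2, Nbl1, Ntn1 and Spon2 passed under all 3 of these settings. Adjusted p-values below come from the 18-library fit unless stated.

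**Figure D2:**
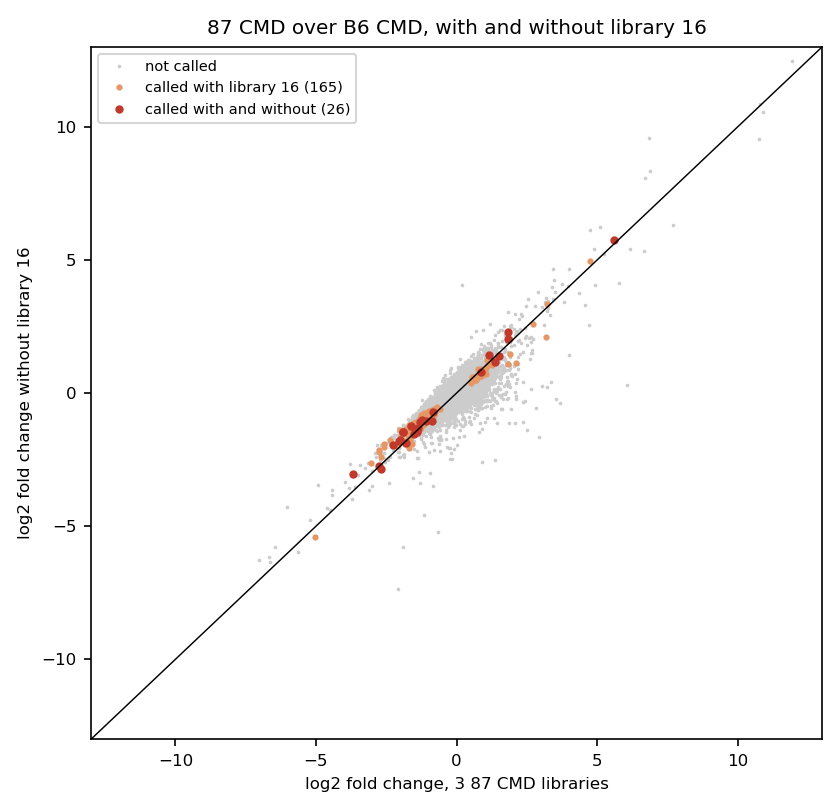
Log2 fold change of each tested gene, 87 CMD over B6 CMD, with all 3 87 CMD libraries (horizontal axis) and without library 16 (vertical axis). Red points are the 26 genes called both ways, orange points the 165 called with library 16 only, grey points the rest; called genes lie near the diagonal, and the lower ones sit slightly above it, nearer to 0 without library 16.

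The fibrillar matrix list (collagens, fibronectin, microfibril and elastin genes, small proteoglycans and crosslinking enzymes) was lower throughout. All 25 measured members had a negative log2 fold change, with and without library 16, where 7238 of all 14503 tested genes were negative. Of the 25, 9 fell and 0 rose, where 1.01% of all tested genes fell and 0.303% rose. Without library 16, 2 of the 25 fell, where 0.143% of all tested genes did. The median was -1.55 (-1.26 without library 16), beside 0.00 for all tested genes, and between the healthy groups it was 0.19. For 23 members the 3 87 CMD libraries lay below the 3 B6 CMD libraries, where 9.45% of all tested genes did. Summed over the list, 87 CMD libraries 16, 17 and 18 held 414, 1016 and 1533 CPM, and B6 CMD libraries 4, 5 and 6 held 2572, 2778 and 2492 CPM. The sums were 2084 to 3188 CPM in the 67 CMD group (BXD-67 background) and 2675 to 3830 CPM in the D2 CMD group, so the 3 87 CMD libraries lay below all 9 other CMD libraries. They also lay near or below healthy muscle, which held 1464 to 2078 CPM in 87 WT and 1025 to 2156 CPM in B6 WT.

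**Figure D3:**
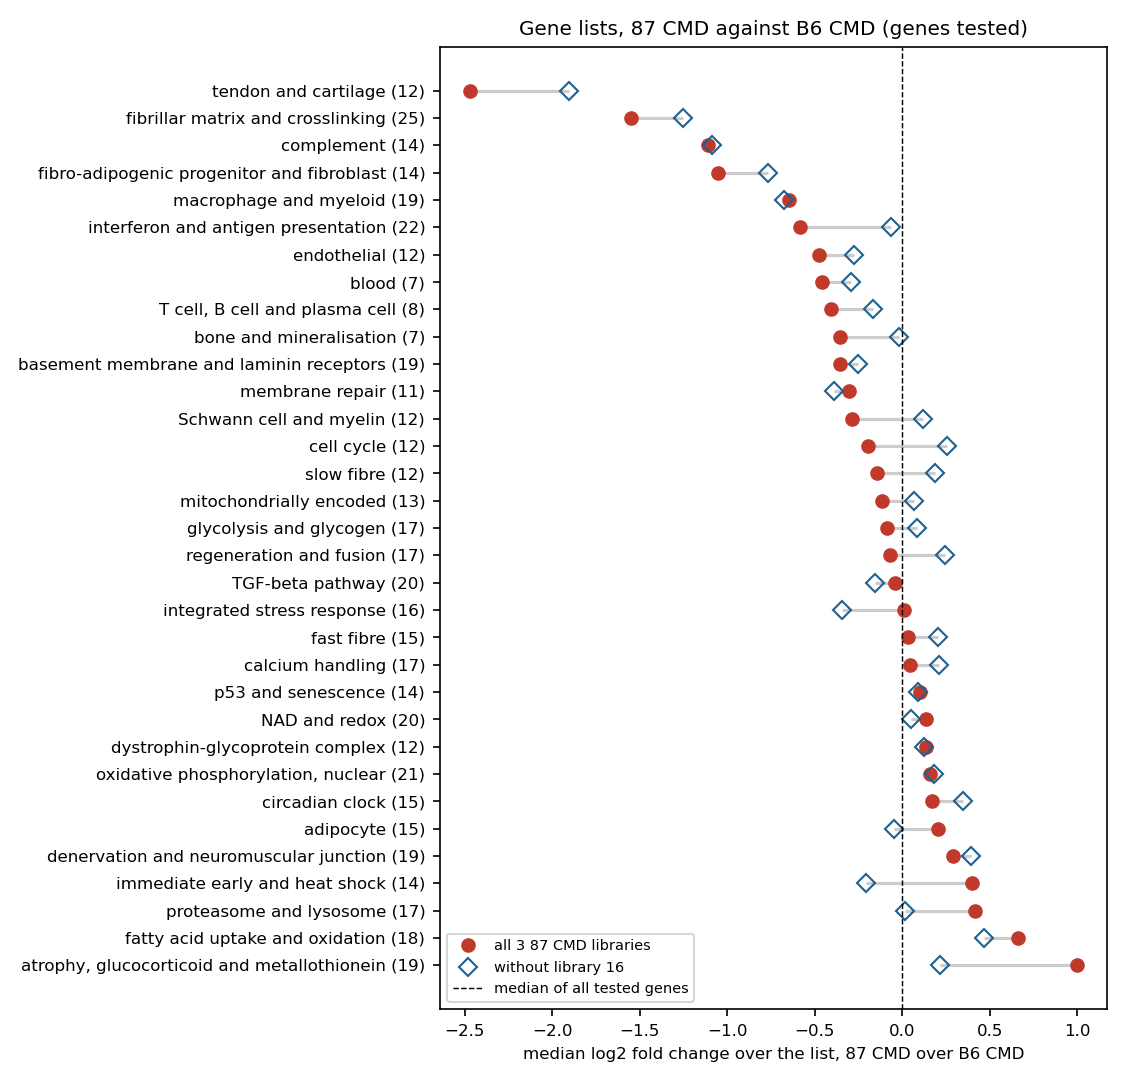
Median log2 fold change, 87 CMD over B6 CMD, of the 33 gene lists, with the number of genes tested in brackets. Filled points use all 3 87 CMD libraries, open diamonds leave library 16 out, and the dashed line is the median of all tested genes; the tendon and fibrillar matrix lists lie farthest to the left under both, while the atrophy and glucocorticoid list moves from 0.996 with library 16 to 0.22 without it.

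Fbn1 (ENSMUSG00000027204) encodes fibrillin, the backbone of the microfibrils on which elastic fibres form. It was at 6.66, 11.5 and 19.9 CPM in 87 CMD libraries 16, 17 and 18, and at 46.9, 56.9 and 38.8 CPM in B6 CMD libraries 4, 5 and 6. Every 87 CMD library was below every B6 CMD library and below every healthy one, where Fbn1 was at 32.2 to 51.8 CPM in 87 WT and 22.7 to 50.8 CPM in B6 WT. Its log2 fold change was -2.05 ± 0.30 (adjusted p = 0.00938), and without library 16 it was -1.80 (adjusted p = 0.0426). Eln (ENSMUSG00000029675) encodes elastin itself. It was at 24, 13.3 and 20.9 CPM in 87 CMD and at 52.9, 90.2 and 62.9 CPM in B6 CMD, a log2 fold change of -1.81 ± 0.29 (adjusted p = 0.0117, and -1.88 with adjusted p = 0.0426 without library 16). In healthy muscle Eln was at 14.1 to 24.3 CPM in 87 WT and 14.2 to 22 CPM in B6 WT, so 87 CMD libraries 16 and 18 lay within the range of healthy muscle and library 17 just under it. Other elastic fibre genes fell as well: Fbln2, a fibulin (-1.22 ± 0.17, adjusted p = 0.00688, and -1.03 with adjusted p = 0.026 without library 16), and Mfap5, a microfibril-associated glycoprotein gene (-1.37 ± 0.25, adjusted p = 0.0199). Mfap5 was no longer past the threshold without library 16 (-1.37, adjusted p = 0.0779).

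Fn1 (ENSMUSG00000026193) encodes fibronectin, on which collagen fibrils assemble. It was at 4.75, 23 and 38.1 CPM in 87 CMD libraries 16, 17 and 18, and at 95.8, 142 and 114 CPM in B6 CMD libraries 4, 5 and 6. All 87 CMD libraries were also below the 51.4 to 77.1 CPM of 87 WT. The log2 fold change was -2.76 ± 0.49 (adjusted p = 0.019), and without library 16 it was -2.22 (adjusted p = 0.0562), just short of the threshold. Aspn (ENSMUSG00000021388) encodes asporin, a small leucine-rich proteoglycan of the matrix. It was at 4.57, 11.2 and 16.1 CPM in 87 CMD and at 41.4, 36.4 and 33.7 CPM in B6 CMD, with no overlap (-2.0 ± 0.28, adjusted p = 0.00688, and -1.76 with adjusted p = 0.0323 without library 16). The related proteoglycan genes Bgn (biglycan, -1.60 ± 0.28, adjusted p = 0.019), Dcn (decorin, -1.09 ± 0.20, adjusted p = 0.0214) and Ogn (osteoglycin, -1.52 ± 0.27, adjusted p = 0.019) fell with library 16 in the fit. Without it they had adjusted p of 0.0563, 0.0956 and 0.0779, in that order.

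The main fibrillar collagens did not pass the test, although their groups did not overlap. Col1a1, a chain of type I collagen, was at 8.71, 81.3 and 125 CPM in 87 CMD libraries 16, 17 and 18, and at 235, 272 and 239 CPM in B6 CMD libraries 4, 5 and 6. Library 16 lay far below libraries 17 and 18, and the log2 fold change of -2.06 ± 0.56 had adjusted p = 0.0835 (-1.38 with adjusted p = 0.115 without library 16). Col1a2 (-2.02, adjusted p = 0.0564) and Col3a1 (-1.92, adjusted p = 0.109) did not pass either, with -1.42 and -1.21 (adjusted p = 0.108 and 0.216) without library 16. Among all 42 tested genes with a collagen symbol, a family gathered after its values were seen, 10 fell and 0 rose, with a median of -0.89 (-0.64 and 2 calls without library 16). The 10 were Col11a1, Col12a1, Col14a1, Col16a1, Col18a1, Col4a1, Col4a2, Col5a2, Col8a1 and Col8a2. Of all tested genes 1.01% fell (0.143% without library 16). Of 27 genes for collagen modification, export and crosslinking, also gathered afterwards, 8 fell and 0 rose: Creb3l1, Loxl1, Loxl2, P4ha1, Pcolce2, Plod2, Sec24d and Serpinh1. They had a median of -0.89 (-0.80 without library 16), and 0 of them passed without library 16. Serpinh1, the collagen chaperone gene, was at 18.6, 36.7 and 63.6 CPM in 87 CMD and at 76.5, 92.5 and 117 CPM in B6 CMD, a log2 fold change of -1.36 ± 0.30 (adjusted p = 0.0422, and 0.16 without library 16). Col12a1, a collagen that decorates fibrils, fell by 2.25 ± 0.35 (adjusted p = 0.0105) and passed without library 16 (-1.95, adjusted p = 0.0474), as did Col8a2 (-2.70 ± 0.44, adjusted p = 0.0121, and -2.86 with adjusted p = 0.0426).

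Tendon and cartilage transcripts gave the lowest median of the 33 lists. All 12 measured members were negative with and without library 16, with a median of -2.47 (-1.90 without it). Of these 6 fell and 0 rose, and 1 fell without library 16. Of all tested genes 1.01% fell (0.143% without library 16). Comp (ENSMUSG00000031849), which encodes the cartilage oligomeric matrix protein of tendon and cartilage, was at 0.315, 1.91 and 3.57 CPM in 87 CMD libraries 16, 17 and 18, and at 24.8, 29.7 and 26.2 CPM in B6 CMD libraries 4, 5 and 6. The groups were far apart, with a log2 fold change of -3.70 ± 0.64 (adjusted p = 0.0185, and -3.04 with adjusted p = 0.0243 without library 16). Healthy muscle held 1.76 to 6.47 CPM of Comp in 87 WT and 4.48 to 11.3 CPM in B6 WT. Thbs4, a thrombospondin gene of tendon and muscle matrix, was at 17.7, 65.8 and 82.5 CPM in 87 CMD and at 312, 331 and 243 CPM in B6 CMD (-2.35 ± 0.50, adjusted p = 0.0372, and 0.0562 without library 16). Cilp, the cartilage intermediate layer protein gene, was at 12.1, 43.8 and 121 CPM in 87 CMD and at 362, 284 and 233 CPM in B6 CMD (-2.59 ± 0.53, adjusted p = 0.0324, and 0.102 without library 16). Tnmd, a marker gene of tendon cells, also fell (-2.76 ± 0.59, adjusted p = 0.0366, and 0.0562 without library 16). So did Prg4 and Col11a1, with adjusted p of 0.115 and 0.102 without library 16. The defining tendon factor Scx did not pass, with 6.22, 2.64 and 3.80 CPM in 87 CMD and 7.33, 7.90 and 4.20 CPM in B6 CMD. The sum over the list was 47.2 to 251 CPM in 87 CMD and 608 to 1003 CPM in B6 CMD, against 99.5 to 205 CPM in 87 WT and 133 to 290 CPM in B6 WT. The bone and mineralisation list did not move as a whole (median -0.36, and -0.02 without library 16). Mgp, whose product inhibits calcification, was the member that fell, with 20.4, 22.1 and 41.1 CPM in 87 CMD and 119, 160 and 152 CPM in B6 CMD (-2.29 ± 0.44, adjusted p = 0.0261, and 0.0931 without library 16).

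**Figure D4:**
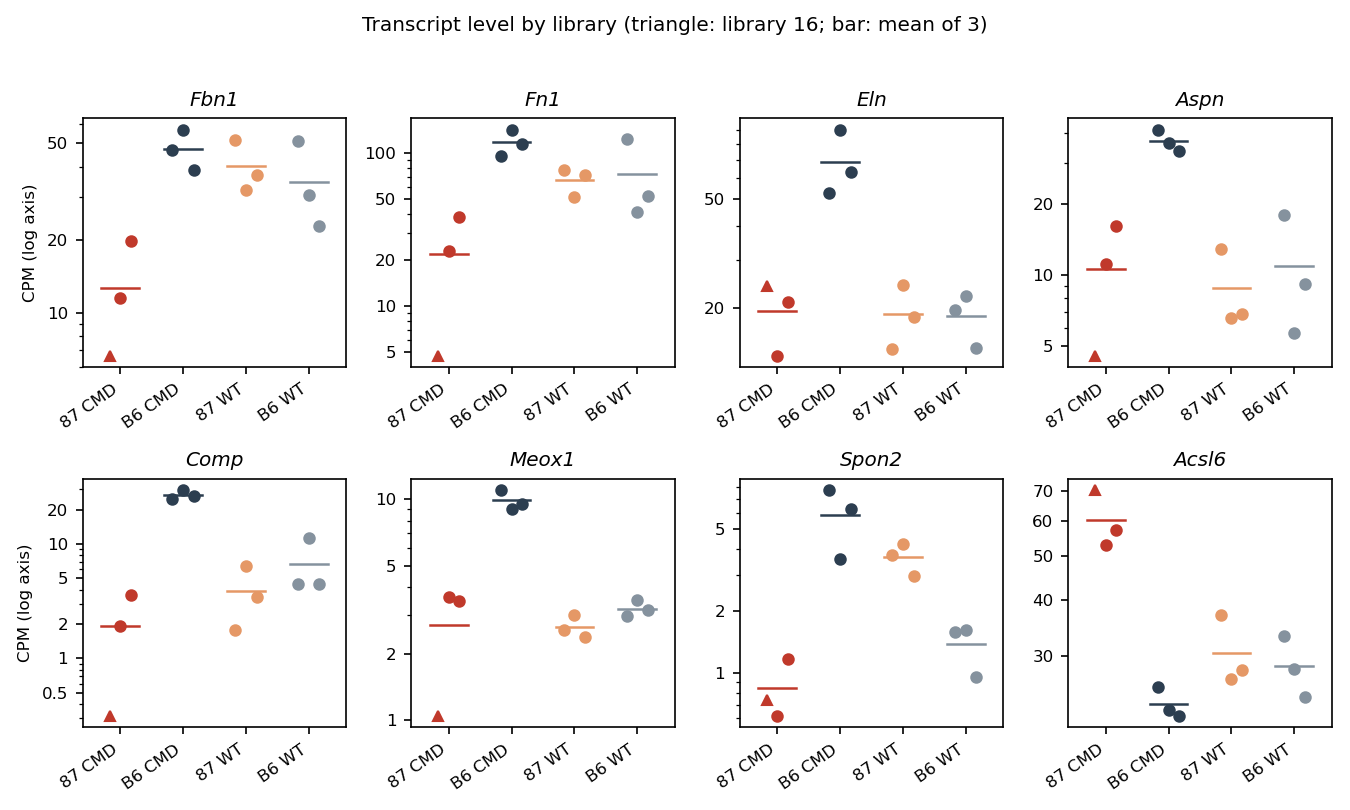
CPM on a log axis of 7 matrix and fibroblast genes and of Acsl6 in 87 CMD, B6 CMD, 87 WT and B6 WT muscle. Points are libraries, the triangle is library 16 and bars are means of 3; in the first 7 panels the 3 87 CMD points lie below the 3 B6 CMD points, and in the Acsl6 panel they lie above all other points.

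Marker genes of the cells that make this matrix were lower too. All 14 measured genes of fibro-adipogenic progenitors and fibroblasts were negative with and without library 16 (median -1.05, and -0.77 without). Of them 3 fell and 0 rose, where 1.01% of all tested genes fell, and 0 passed without library 16. Pdgfra, the receptor gene that defines these progenitors, was at 11.5, 12 and 16.4 CPM in 87 CMD libraries 16, 17 and 18, and at 23, 22.3 and 24.9 CPM in B6 CMD libraries 4, 5 and 6 (-0.82 ± 0.15, adjusted p = 0.0199, and -0.78 with adjusted p = 0.0779 without library 16). Ly6a, which encodes the surface antigen Sca-1 of these cells, was at 33.3, 31.1 and 42.7 CPM in 87 CMD and at 50.6, 82.3 and 63.8 CPM in B6 CMD (-0.88 ± 0.20, adjusted p = 0.0474, and 0.171 without library 16). The summed level of the list was 534, 881 and 1236 CPM at the lowest, middle and highest 87 CMD library, and 1461 to 1646 CPM in B6 CMD. It was 1164 to 1739 CPM in 87 WT and 1131 to 2287 CPM in B6 WT. Most of the sum in CMD muscle came from Gsn, at a mean of 585 CPM in 87 CMD and 994 CPM in B6 CMD. Gsn was not called (-0.83 ± 0.20, adjusted p = 0.0584, and 0.214 without library 16). In bulk muscle, fewer cells of a type and less RNA per cell cannot be told apart, and the part of fibroblast abundance in the lower matrix transcripts was not tested. Endothelial markers were lower in sum as well, at 394 to 490 CPM in 87 CMD and 533 to 678 CPM in B6 CMD, with 0 of 12 genes called. Macrophage markers had 0 of 19 genes called and a median of -0.65, with 120 to 211 CPM in 87 CMD and 198 to 256 CPM in B6 CMD.

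Receptors, adhesion molecules and regulators of mesenchymal cells were among the genes called with and without library 16. Axl encodes a receptor tyrosine kinase for the ligand Gas6. It was at 16.6, 20.1 and 25.4 CPM in 87 CMD and at 47.3, 42.2 and 40.0 CPM in B6 CMD (-1.08 ± 0.16, adjusted p = 0.00938, and 0.0373 without library 16). Itga11, the collagen-binding integrin chain of fibroblasts, was at 0.472, 1.77 and 2.44 CPM in 87 CMD and at 6.00, 5.67 and 4.73 CPM in B6 CMD (-1.91 ± 0.35, adjusted p = 0.0199, and 0.0426 without library 16). Antxr1, a collagen-binding receptor gene, fell by 1.61 ± 0.27 (adjusted p = 0.0148, and 0.026 without library 16). Meox1 (ENSMUSG00000001493), a homeobox factor linked to fibroblast activation, was at 1.05, 3.62 and 3.45 CPM in 87 CMD and at 11, 9.06 and 9.51 CPM in B6 CMD (-1.90 ± 0.30, adjusted p = 0.0121, and -1.46 with adjusted p = 0.00468 without library 16). Its levels were 2.39 to 2.99 CPM in 87 WT and 2.95 to 3.50 CPM in B6 WT, beside those of 87 CMD libraries 17 and 18. Ntn1, a guidance cue, fell by 1.48 ± 0.18, and Nbl1, a BMP antagonist, by 1.52 ± 0.19 (adjusted p = 0.00595 each, and 0.0243 each without library 16). Enpep, an aminopeptidase of angiotensin processing found on pericytes, fell by 1.36 ± 0.19 (adjusted p = 0.00688, and 0.0323 without library 16). Cpxm2, Lhfpl6, Pkd2 and AU022252 also passed both ways, at log2 fold changes of -1.42, -1.29, -0.84 and -0.87, in that order.

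Promoters of 3 of the lower genes are shown as a description, and a shared regulator was not tested. Each line is again the 250 bases before the RefSeq start (GRCm38.p6) on the strand of the gene, and capitals mark GGAATG on either strand, the core bound by TEAD factors.
Axl promoter, chr7:25788734-25788983, minus strand: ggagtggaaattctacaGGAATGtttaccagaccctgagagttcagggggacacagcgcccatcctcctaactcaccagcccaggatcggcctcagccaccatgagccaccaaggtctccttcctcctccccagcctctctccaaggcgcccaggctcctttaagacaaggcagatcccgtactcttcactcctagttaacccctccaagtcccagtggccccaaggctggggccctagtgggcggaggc
Cpxm2 promoter, chr7:132154742-132154991, minus strand: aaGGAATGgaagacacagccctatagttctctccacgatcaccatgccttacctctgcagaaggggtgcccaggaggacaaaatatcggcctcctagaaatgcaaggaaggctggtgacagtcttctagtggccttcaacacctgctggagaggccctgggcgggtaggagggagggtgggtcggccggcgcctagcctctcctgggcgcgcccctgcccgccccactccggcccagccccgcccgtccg
Fbn1 promoter, chr2:125506439-125506688, minus strand: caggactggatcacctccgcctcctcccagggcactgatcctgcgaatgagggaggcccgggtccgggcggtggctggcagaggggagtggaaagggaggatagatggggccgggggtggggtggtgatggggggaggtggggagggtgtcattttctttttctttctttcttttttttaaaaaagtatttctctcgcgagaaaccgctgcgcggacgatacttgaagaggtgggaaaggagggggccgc
Axl and Cpxm2 held 1 match each, and Fbn1 held 0 in this window. Of the 18 genes named as lower with and without library 16, 10 had a promoter in the table and 4 of those held the motif (AU022252, Axl, Cpxm2 and Pkd2), where 12.6% of all 32851 promoters did. The 10 were counted with 1 promoter per gene and the 32851 with every promoter entry, so the shares are not alike, and enrichment was not tested. A match is a match of letters in this window and no evidence of binding.

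Complement genes were lower as a list, but few genes of innate immunity passed. Of 14 measured complement genes 1 fell, where 1.01% of all tested genes did. All 14 were negative (13 without library 16), with a median of -1.11 (-1.09 without it). For 9 the 87 CMD libraries lay below all B6 CMD libraries, where 9.45% of all genes did. Serping1, which encodes the inhibitor of the first complement proteases, was at 28.9, 41.1 and 61.3 CPM in 87 CMD and at 89.4, 99.6 and 88.2 CPM in B6 CMD (-1.18 ± 0.26, adjusted p = 0.0426, and 0.158 without library 16). Of 22 interferon and antigen presentation genes 1 fell, Isg15, a ubiquitin-like interferon target, at 0.498, 0.337 and 0.759 CPM in 87 CMD and 1.25, 1.41 and 2.47 CPM in B6 CMD (-1.66 ± 0.37, adjusted p = 0.0444, and 0.115 without library 16). The interferon median was -0.58 with library 16 and -0.06 without it, and 21 of the 22 genes were negative with it and 12 without it.

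Basement membrane genes had a median nearer to 0. Of 19 measured genes 2 fell and 0 rose, where 1.01% of all tested genes fell. None of the 19 passed without library 16, and their median was -0.35 (-0.25 without it). Col4a1, a chain of the basement membrane collagen, was at 79.0, 91.8 and 118 CPM in 87 CMD and at 147, 172 and 210 CPM in B6 CMD (-0.89 ± 0.20, adjusted p = 0.0444, and 0.161 without library 16), and its partner Col4a2 fell by 0.84 ± 0.20 (adjusted p = 0.0486, and 0.188). The laminin chains Lama4, Lama5, Lamb1, Lamb2 and Lamc1 and the receptor genes Itga7 and Dag1 did not pass. Genes of the TGF-beta pathway, a pathway that drives fibrosis, had 0 of 20 called and a median of -0.04 (-0.16 without library 16). The list mixes ligands and receptors with inhibitors such as Smad7 and Fst, so its median does not describe a set that acts in a single direction. The ligand gene Tgfb1 had a log2 fold change of 0.03. Ltbp4, a latent TGF-beta binding protein gene that modifies dystrophy in mice, was at 19.8, 53.5 and 59.1 CPM in 87 CMD and at 93.6, 118 and 99.4 CPM in B6 CMD, with no overlap but adjusted p = 0.0961 (-1.20 ± 0.35, and -0.71 with adjusted p = 0.201 without library 16). The other modifier genes Spp1 (osteopontin) and Anxa6 (annexin A6) did not pass, at -0.96 ± 0.44 (adjusted p = 0.245) and -0.11 ± 0.13 (adjusted p = 0.659), and at -0.65 and -0.21 without library 16.

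Of the 44 genes higher in 87 CMD, 2 were on a list (Chac1 and Gadd45a), where 24 of the 147 lower genes were. Of all 14503 tested genes, 493 were on a list. Acsl6 (ENSMUSG00000020333), a synthetase that activates long-chain fatty acids, was at 70.3, 53 and 57.2 CPM in 87 CMD libraries 16, 17 and 18, and at 25.6, 22.7 and 22 CPM in B6 CMD libraries 4, 5 and 6. Every 87 CMD library also lay above healthy muscle, at 26.6 to 37.0 CPM in 87 WT and 24.3 to 33.2 CPM in B6 WT. Its log2 fold change of 1.36 ± 0.16 (adjusted p = 0.00409) was 1.16 without library 16 (adjusted p = 0.00468). The zinc finger genes Zfp949 (1.5 ± 0.21, adjusted p = 0.00688) and Zfp956 (0.86 ± 0.13, adjusted p = 0.00938) rose with and without library 16 (adjusted p = 0.026 and 0.0336 without it). Zfp949 was at 24.9, 23.7 and 17.2 CPM in 87 CMD and at 8.35, 6.76 and 8.01 CPM in B6 CMD. Map1lc3a, an autophagosome protein gene, was at 459, 334 and 316 CPM in 87 CMD and at 183, 194 and 177 CPM in B6 CMD (0.999 ± 0.18, adjusted p = 0.019, and 0.0779 without library 16). Chac1, a stress-induced gene for glutathione breakdown, was at 55.0, 23 and 17.3 CPM in 87 CMD and at 6.60, 10.2 and 7.05 CPM in B6 CMD (1.91 ± 0.41, adjusted p = 0.0368, and 0.161 without library 16). In healthy muscle Chac1 was at 29.7 to 55.5 CPM in 87 WT and 54.2 to 64.9 CPM in B6 WT. Library 16 lay within the 87 WT range, and the other CMD libraries lay below healthy muscle of their own strain.

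Genes of the response to lost innervation held calls in the upward direction. Of 19 measured genes 1 rose with library 16 and 2 without it, where 0.303% and 0.0681% of all tested genes did. Their median was 0.29 (0.39 without library 16). Gadd45a, a stress gene that denervated muscle induces, was at 156, 100 and 138 CPM in 87 CMD and at 38.5, 121 and 42.7 CPM in B6 CMD, so the groups overlapped through library 5 (1.17 ± 0.26, adjusted p = 0.0429, and 0.0422 without library 16). Chrna1, the alpha subunit gene of the acetylcholine receptor, was at 33.7, 82.9 and 90.1 CPM in 87 CMD and at 26.1, 37.9 and 38.3 CPM in B6 CMD. It did not pass with library 16 (1.07 ± 0.37, adjusted p = 0.14) and passed without it (1.55, adjusted p = 0.026). Slow fibre, fast fibre, regeneration and dystrophin-glycoprotein complex genes held 0 calls among 12, 15, 17 and 12 tested, with medians between -0.15 and 0.13.

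The same pair of strains was compared in healthy muscle, where 0 fibrillar matrix genes were called. Between 87 WT and B6 WT, 5 of 14503 genes were called (0.0345%), 3 higher and 2 lower, while 1266 had an unadjusted p under 0.05 and DESeq2 called 65. The 5 were Hyi, Rnaset2a and Fuca2, higher in 87 WT, and Fggy and Rab6b, lower in 87 WT. Of the 191 genes called in CMD, 24 (12.6%) had the same direction in WT at an unadjusted p under 0.05. Another 9 (4.71%) had the opposite direction at that p. Ntn1, Pkd2, AU022252 and Col12a1, named above as lower, were also lower in every 87 WT library than in every B6 WT library. Spon2 was higher in every 87 WT library. Hyi, hydroxypyruvate isomerase, was the gene past the adjusted threshold in both comparisons. It was at 4.38, 5.92 and 8.19 CPM in 87 CMD and at 1.59, 2.05 and 1.45 CPM in B6 CMD (1.83 ± 0.28, adjusted p = 0.00938, and 2.04 with adjusted p = 0.0226 without library 16). The WT log2 fold change of Hyi was 1.88 ± 0.29 (adjusted p = 0.0294), and D2 WT muscle held 4.22 to 5.16 CPM of it.

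Each CMD group was also set against healthy muscle of its own strain. Of the 25 fibrillar matrix genes, all 3 87 CMD libraries lay below all 3 87 WT libraries for 10, above them for 1, and overlapped for 14. Over all tested genes 15.2% lay below and 15.8% above. Without library 16 the counts were 10 below and 2 above, with 22.2% and 23% over all genes. All 3 B6 CMD libraries lay above all 3 B6 WT libraries for 16 of the 25, below them for 0, and overlapped for 9, where 20% of all genes lay above and 21.9% below. Of the 147 genes lower in 87 CMD than in B6 CMD, 68 were below 87 WT and 3 above it in 87 CMD (69 and 13 without library 16), and 85 were above B6 WT and 3 below it in B6 CMD. These comparisons reuse the CMD libraries that chose the 147 genes, so the counts are a description. None of the 25 matrix genes passed the test of a difference in CMD effect between 87 and B6 (0 called, smallest adjusted p = 0.0926). Over all genes that interaction passed for 2 of 14503 (0.0138%), with 1945 at an unadjusted p under 0.05, and for 219 in DESeq2.

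Both genes of the interaction encode matrix proteins. Spon2 (ENSMUSG00000037379), spondin, a secreted protein that binds integrins and microbial surfaces, was at 0.735, 0.618 and 1.17 CPM in 87 CMD and at 7.78, 3.6 and 6.28 CPM in B6 CMD. In healthy muscle it was at 3.77, 4.26 and 2.95 CPM in 87 WT and at 1.58, 1.61 and 0.958 CPM in B6 WT, so CMD muscle lay below WT in 87 and above WT in B6. The CMD effect in 87 minus that in B6 was -4.18 (log2, adjusted p = 0.0397). Vcan, the large proteoglycan versican, was at 1.68, 2.78 and 2.77 CPM in 87 CMD and at 7.44, 8.33 and 6.64 CPM in B6 CMD, against 8.96, 4.80 and 7.16 CPM in 87 WT and 5.07, 2.36 and 2.17 CPM in B6 WT. Its difference was -2.88 (adjusted p = 0.0397). Without library 16 the interaction passed for 0 genes, with 1507 at an unadjusted p under 0.05, with Spon2 at -4.15 (adjusted p = 0.0723) and Vcan at -2.80 (adjusted p = 0.0961).

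The 87 libraries were not alike at genes that separate the parent strains. By a rule chosen after the data were seen, 50 genes with a mean of at least 1 CPM differed at least 4-fold between every D2 and every B6 library. For 28 of them all 6 87 libraries were nearer to the B6 mean on the log2 scale, for 2 all were nearer to the D2 mean, and for 20 the 87 libraries were divided. The division lay within the 87 CMD group for 17 genes and within the 87 WT group for 11. The cut was the midpoint between the B6 and D2 means, so a gene near it could be divided by a small difference. Rab6b, for example, was at 2.41, 3.42 and 3.45 CPM in 87 WT libraries 13, 14 and 15 and counted as divided. H2bc12 and H2bc13 were divided only by library 16, at 0 CPM. H2-Ea, a class II antigen presentation gene that C57BL/6 mice do not express, was at 5.27, 12.2 and 0 CPM in 87 CMD libraries 16, 17 and 18 and at 30.1, 19.5 and 0 CPM in 87 WT libraries 13, 14 and 15. It was at 6.33 to 44.7 CPM in D2 libraries and at 0 to 0.12 CPM in B6 libraries. Gvin1, an interferon-induced GTPase gene, was at 0, 1.99 and 0 CPM in 87 CMD libraries 16, 17 and 18 and at 4.98, 3.80 and 14.2 CPM in 87 WT libraries, with 0 in D2 libraries and 5.77 to 17.1 CPM in B6 libraries. The study design names BXD-87 as a line, and at these 20 genes the libraries labelled 87 did not all lie on the same side of the midpoint. Whether the 87 mice had a common genotype cannot be told from these data, and the part of such differences in the comparison with B6 CMD was not tested.

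**Figure D5:**
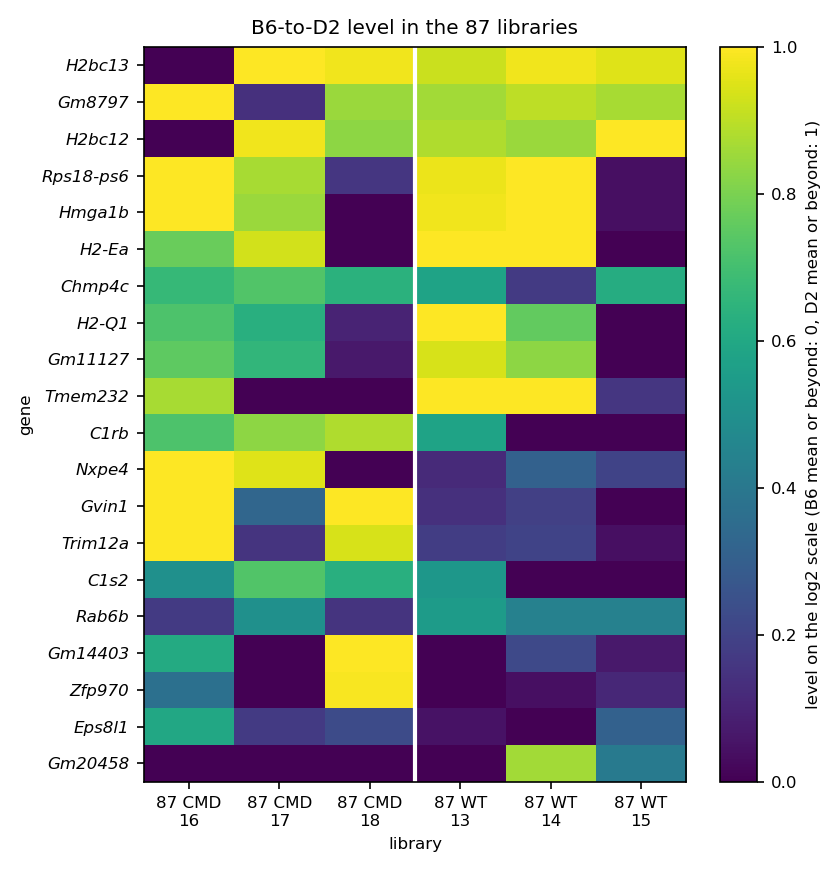
Level of the 20 divided genes in 87 CMD libraries 16, 17 and 18 and 87 WT libraries 13, 14 and 15, on a scale where dark is the B6 mean or beyond and yellow the D2 mean or beyond (log2 of CPM + 0.1). Rows change colour within each group; H2-Ea, for example, is yellow to green in libraries 16, 17, 13 and 14 and dark in libraries 18 and 15.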

How the data were processed

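Per the labels' protocols, RNA from left quadriceps was extracted with TRIzol, and stranded mRNA libraries were read from both ends on an Illumina instrument. The submitters' processing notes name the build GRCm39 (mm39). Neither the aligner nor the counter is given in the sources used here. The authors deposited, for each of 25369 genes, raw counts as unique and as total exon reads. They also deposited RPKM and TPM values, per the file headers, which were not used.

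Total exon counts went into glmQLFit of edgeR 4.0.16 (R 4.3.3) after TMM scaling. The filter filterByExpr, with groups given, a minimum of 10 counts and a minimum total of 15, kept 14503 genes. The fit held 18 libraries (WT and CMD of B6, 67 and 87), 1 term per group (6 groups) and a sex term from the labels. The 6 D2 libraries were left out because Y-linked reads go against the sex label in 4 of them. Contrasts were tested by glmQLFTest (prior degrees of freedom 3.91) with Benjamini-Hochberg adjustment over all tested genes and a threshold of 0.05, and repeated on 17 libraries without library 16 (14692 genes). P-values measure the spread between these samples, which the labels do not tie to separate litters, and no replicate numbers are shared between groups. Depth was 32292613 to 51715975 reads per library over the 18, and 98.1% to 98.2% of reads in the 6 CMD libraries were unique.

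The comparison, the gene lists (33 lists, 512 genes, 510 found, 493 tested) and the alternatives were chosen with earlier results of these data known. Genes named were those past the threshold with and without library 16, a mean log2 CPM not below 1, and CMD groups that do not overlap; those past it for the difference in CMD effect; the called gene with the largest change of each list; Lama2, Spp1, Ltbp4, Anxa6 and Nnt (listed as Nnt_1, with log2 fold change 0.08 and adjusted p = 0.96); and 6 genes that describe library 16. Symbols of predicted genes, H2, immunoglobulin and histone genes and pseudogenes were left out of the first class. Other genes were named after their values were seen, as were the collagen families and the strain marker genes. Alternatives were no sex term, no filter, other sets of libraries, RLE size factors, unique reads, a log2 fold change of at least 1, DESeq2 1.42.0 and each library left out in turn. Sex from Y-linked reads, DESeq2 and Y-linked sex without library 16, and the counts against own WT without library 16, were added after seeing the data. A count by chromosome was planned and not run, since the count tables used here have no chromosome column. Promoters came from RefSeq, build GRCm38.p6. Figures and motif counts used Python 3.11.15, with pandas 2.3.3.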

Additional observations from a re-analysis of the deposited data

Results flagged for a closer look

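The effect of CMD differed between the strains for Spon2 and Vcan, by an interaction test in edgeR over 14503 genes. For Spon2, the CMD effect in 87 minus that in B6 was -4.18 on the log2 scale (adjusted p = 0.0397, and -4.15 with 0.0723 without library 16), with 87 CMD below 87 WT in 3 of 3 libraries and B6 CMD above B6 WT in 3 of 3. For Vcan it was -2.88 (adjusted p = 0.0397, and -2.80 with 0.0961 without library 16), again with 87 CMD below 87 WT and B6 CMD above B6 WT in 3 of 3 libraries each.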

How the results depend on the processing

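The count of genes called between 87 CMD and B6 CMD (191) was 23 with no sex term, 20 with the 12 libraries of B6 and 87, 399 with all 24 libraries and sex as labelled, 298 with sex from Y-linked reads, 956 in DESeq2 and 0 with the 6 CMD libraries alone. Leaving out 1 library gave 9 (without library 5) to 737 (without library 18). Without library 16 the count (31) was 15 with no sex term, 20 with Y-linked sex in all other libraries and 306 in DESeq2. The healthy count (5) was 0 with 12 libraries, 10 with 24, 8 with Y-linked sex, 65 in DESeq2 and 0 to 10 with 1 library left out. The difference in CMD effect (2 genes) was 1 with no sex term, 1 with 12 libraries, 8 with 24, 219 in DESeq2 and 0 to 61 with 1 library left out, and without library 16 (0 genes) it was 180 in DESeq2. The count of list genes called (26) was 3 with no sex term, 2 with 12 libraries, 42 with 24, 0 with the 6 CMD libraries, 86 in DESeq2 and 1 to 69 with 1 library left out. Genes called in both CMD and WT (1) numbered 2 with no filter, 0 with 12 libraries, 4 with 24, 4 with Y-linked sex, 14 in DESeq2 and 0 to 5 with 1 library left out. The cause of these changes was not tested.

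Of 858 values for 39 named genes, 710 kept their direction and side of the threshold, 135 lost the call, 7 gained it and 6 changed sign. The last were all of uncalled genes: Nnt_1 was -0.063, -0.345, -0.230 and -0.116 without libraries 4, 5, 16 and 18, Anxa6 0.004 without library 5, and Fuca2 0.009 without library 16. With 1 library left out, Nnt_1 ran from -0.345 to 0.684, Anxa6 from -0.208 to 0.004 and Fuca2 from -0.325 to 0.009. Of 21 genes called with and without library 16, 7 passed without library 5. Acsl6, Fbln2, Nbl1, Ntn1 and Spon2 lost their call only in the fit of the 6 CMD libraries. No paired analysis was possible because groups share no replicate number.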

Other observations

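Genes of fatty acid uptake and oxidation leaned upward in 87 CMD without a call. All 18 measured members had a positive log2 fold change over B6 CMD, with a median of 0.66 (0.47 without library 16), and 0 passed the test. All 3 87 CMD libraries lay above all 3 87 WT libraries for 16 of the 18, and all 3 B6 CMD libraries above all 3 B6 WT libraries for 1, beside 15.8% and 20% of all tested genes. Without library 16 the first count was 16, beside 23%. Summed over the list, healthy muscle held 2614 to 3215 CPM in 87 WT. In B6 WT the lowest, middle and highest libraries held 2220, 2544 and 5026 CPM. The highest B6 WT library thus lay within the B6 CMD range given next, while the others lay below it. Library 16 was the highest in sum, with 18200 CPM against 5389 and 7537 CPM in libraries 17 and 18 and 3850 to 5871 CPM in B6 CMD, so library 17 lay within the B6 CMD range. Ppargc1a, a regulator of mitochondrial biogenesis, was at 46.9, 44.8 and 60.6 CPM in 87 CMD and at 34, 21.4 and 32.4 CPM in B6 CMD (0.80 ± 0.26, adjusted p = 0.132, and 0.28 without library 16). Acadl, an acyl-CoA dehydrogenase gene, was at 977, 461 and 604 CPM in 87 CMD and at 291, 318 and 362 CPM in B6 CMD (0.98 ± 0.34, adjusted p = 0.145, and 0.408 without library 16). Of 22 interferon and antigen presentation genes, 87 CMD lay above 87 WT for 0 and below it for 2 (4 and 2 without library 16), and B6 CMD lay above B6 WT for 13 and below it for 0, beside the shares of all genes given above. Library 16 was the lowest in sum, at 278 CPM against 591 and 970 CPM in libraries 17 and 18.

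Library 16 also held little of some transcripts that libraries 17 and 18 held. Igfbp5, which encodes a binding protein of insulin-like growth factors, was at 12.8 CPM in library 16 against 701 and 589 CPM in libraries 17 and 18, and Nrep at 0.944 against 102 and 84.2 CPM. Compared with all 5 other CMD libraries, 88 genes were at least 4-fold above and 146 at least 4-fold below in library 16. The matrix genes Thbs1 and Lox ran against the list: Thbs1 was at 33.7 CPM in library 16 and at 4.04 CPM in both libraries 17 and 18, and Lox at 25.2, 6.71 and 14.9 CPM in libraries 16, 17 and 18.

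At the 50 genes that separate D2 from B6 libraries, the number nearer to the D2 mean was 16, 14 and 12 in 87 CMD libraries 16, 17 and 18, and 15, 12 and 6 in 87 WT libraries 13, 14 and 15. Of the 50, 0 had all 87 CMD libraries on one side and all 87 WT libraries on the other.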
